A study of Homo sapiens with 12 samples.

Results

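Messenger RNA of 10 genes that encode negative feedback regulators of the RAS-ERK pathway was followed in A549, a cell line from a human lung adenocarcinoma. The genes were taken by name: the dual-specificity phosphatases DUSP1, DUSP4, DUSP5 and DUSP6, the Sprouty genes SPRY1, SPRY2 and SPRY4, and the Spred genes SPRED1, SPRED2 and SPRED3. All 10 were found among the 57879 genes of the deposited values. Cells carried a stable lentiviral construct of 1 of 4 kinds. These were an shRNA against TAF15 (sh-TAF15; the TAF15 protein binds RNA and takes part in transcription), its empty shRNA construct (sh-NC), a TIF1γ expression construct (TIF1γ, the TRIM33 protein), and its empty expression construct (vector). Values were at hand for sh-TAF15 replicates 2 and 3, sh-NC replicate 2, TIF1γ replicates 2 and 3, and vector replicates 1, 2 and 3, which is 8 of the 12 samples labelled. The other 4 samples were not analysed here. The labels call the replicates biological and name neither a promoter of the constructs nor whether a line was 1 clone or a pool, so p-values measure the spread between these samples. In bulk RNA, fewer cells that express a gene and less RNA per cell cannot be told apart.

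Growth factor receptors activate RAS, which drives the RAF, MEK and ERK kinases, and active ERK induces genes that shut the same pathway down. The DUSP proteins remove phosphate from ERK and related kinases. DUSP1, DUSP4 and DUSP5 act in the nucleus and DUSP6 in the cytoplasm, and DUSP1 also acts on the stress kinases p38 and JNK. Sprouty proteins block signalling between the receptor and RAF, while SPRED1 and SPRED2 bring the RAS inactivator neurofibromin (NF1) to the membrane. These genes thus serve as a readout of pathway output and as brakes on it.

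The values were FPKM, a unit that corrects fragment counts for library size and transcript length, so levels can be set side by side between genes. The summed FPKM per library was between 881293 and 1356634, and 18580 to 19620 genes were above 0. The absolute depth is unknown, and the lowest values put the depth of the libraries between 0.79 and 1.04 times that of vector replicate 1. TRIM33 was at 8.03 and 6.14 FPKM in TIF1γ, against 2.23, 2.1 and 1.27 FPKM in vector. The row of TAF15 could not be matched by the annotation used, so its knockdown was not checked here. All 8 epithelial and A549 markers reached 1 FPKM in at least 1 library, but their summed FPKM was 5580 to 6550 in sh-TAF15, 3880 in sh-NC, 3480 to 3520 in TIF1γ, and 13400 to 15800 in vector. KRT8 and KRT18 were listed at 0 in both TIF1γ libraries beside over 1000 FPKM in all others, and were set aside from the tests. Without them the sum was 2150 to 2180 in sh-TAF15, 1360 in sh-NC, 3480 to 3520 in TIF1γ, and 3490 to 4300 in vector. In sh-NC that sum was mostly ALDH1A1 (1160 FPKM) and AKR1B10 (191 FPKM). KRT19 (0.243 FPKM), EPCAM (0.436 FPKM), CDH1 (0.857 FPKM) and CLDN4 (0.28 FPKM) were under 1 FPKM there. KRT19 was at 0.243 to 0.775 FPKM in the sh-TAF15 and sh-NC libraries and at 26.9 to 61.7 FPKM in the others. CDH1 was at 6.96 and 6 FPKM in sh-TAF15. Of 6 fibroblast markers 2 reached 1 FPKM (sums of 5.92 to 5.99 in sh-TAF15, 4.13 in sh-NC, 0.378 to 0.603 in TIF1γ and 0.401 to 1.27 in vector), with DCN at 0 throughout. Of 5 leukocyte markers only CD14 reached 1 FPKM (sums of 7.41 to 10.2 in sh-TAF15, 4.49 in sh-NC, 29.1 to 35.1 in TIF1γ and 11.7 to 23.6 in vector), with CD3E at 0 throughout, and none of 4 endothelial markers did. The part of these differences in the results was not tested.

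DUSP1 was the most abundant of the 10 mRNAs in all 4 groups. In vector cells DUSP1 averaged 73.6 ± 13.7 FPKM, DUSP4 30.5 ± 6.95 FPKM, DUSP5 22.1 ± 0.686 FPKM and SPRED2 18.1 ± 0.836 FPKM (SD, n = 3 each). The ranges of these 4 genes did not overlap with each other in vector. DUSP6 followed at 4.24 ± 1.72 FPKM, then SPRED1 at 2.59 ± 0.0555, SPRY1 at 2.5 ± 1.23, SPRY2 at 2.16 ± 0.324 and SPRY4 at 1.29 ± 0.534 FPKM (SD, n = 3 each). Each neighbour among SPRED1, SPRY1, SPRY2 and SPRY4 overlapped with the next in that order. SPRED3 was lowest, at 0.151 ± 0.141 FPKM. Phosphatase mRNA thus made up most of the summed FPKM of the 10 genes, and the Sprouty mRNAs a small part of it.

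**Figure D1:**
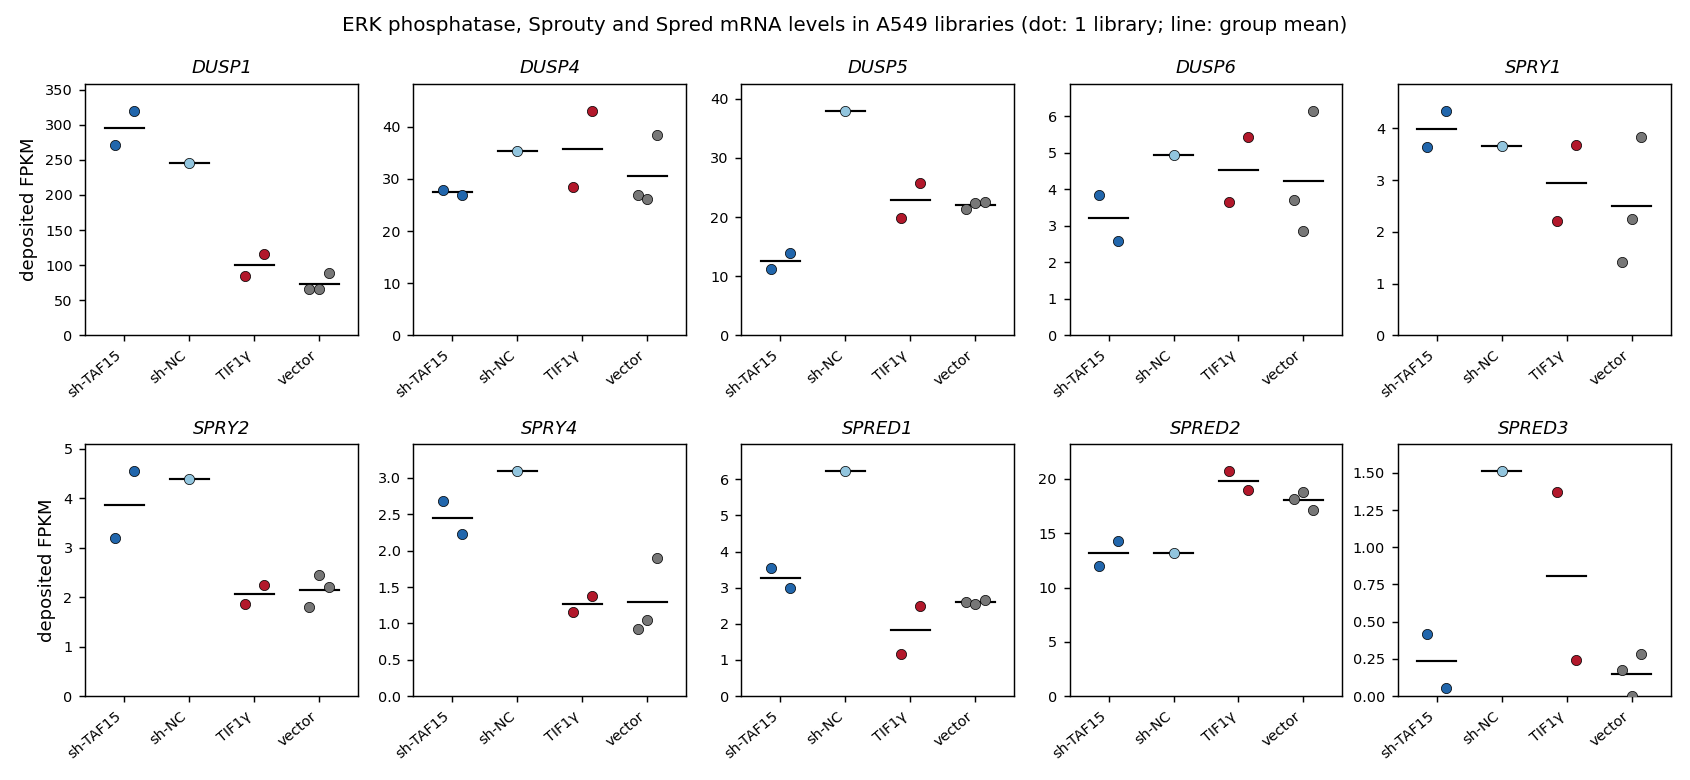
Deposited FPKM of the 10 genes (y axis, linear, a separate scale for each gene) in the 4 groups (x axis), with a dot for each library and a line at the group mean. DUSP1 is at 246 to 320 FPKM in the sh-TAF15 and sh-NC libraries and at 65.7 to 116 FPKM in the TIF1γ and vector libraries, while DUSP5 is at 11.3 and 13.9 FPKM in sh-TAF15 and at 38 FPKM in sh-NC.

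DUSP5 took another place in the shRNA cells. In sh-TAF15 DUSP5 (12.6 ± 1.84 FPKM, SD, n = 2) overlapped with SPRED2 (13.1 ± 1.62 FPKM), whereas in the single sh-NC library DUSP5 (38 FPKM) was second only to DUSP1 and above DUSP4 (35.3 FPKM). In TIF1γ the order of the 5 highest genes was that of vector, with DUSP5 (22.8 ± 4.18 FPKM) and SPRED2 (19.9 ± 1.19 FPKM, SD, n = 2 each) overlapping. All 10 genes passed the filter for testing (at least 1 FPKM in at least 2 libraries). SPRED3 passed it only through sh-NC replicate 2 (1.51 FPKM) and TIF1γ replicate 2 (1.37 FPKM), and was at 0.056 to 0.417 FPKM or listed at 0 in the others.

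The make-up of the 10 mRNAs differed most in the share of DUSP1. DUSP1 held 79.9% and 81.7% of their summed FPKM in sh-TAF15, 69.1% in sh-NC, 51.4% and 52.9% in TIF1γ, and 46%, 45.6% and 48.4% in vector. The sum of the other 9 genes was 68.4 and 71.9 FPKM in sh-TAF15, 110 FPKM in sh-NC, 80.5 and 103 FPKM in TIF1γ, and 77.1, 78.4 and 95.3 FPKM in vector. The summed level without DUSP1 was thus lowest in the sh-TAF15 libraries, where the DUSP1 share was highest. Within the nuclear phosphatases, the ratio of DUSP1 to DUSP5 was 24 and 23 in sh-TAF15, 6.49 in sh-NC, 4.28 and 4.5 in TIF1γ, and 3.08, 2.94 and 3.95 in vector. Within the Spred genes, the ratio of SPRED2 to SPRED1 was 3.37 and 4.78 in sh-TAF15 and 2.13 in sh-NC, against 17.9 and 7.65 in TIF1γ and 7.02, 7.41 and 6.47 in vector. All 3 sh libraries were thus above the other 5 in the first ratio and below them in the second. The share of other gene pairs that part the libraries in this way was not computed. The second ratio depends on SPRED1. Its log2 fold change between the sh and the other libraries was 0.13 with the trend in transcript GC content and length removed.

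**Figure D2:**
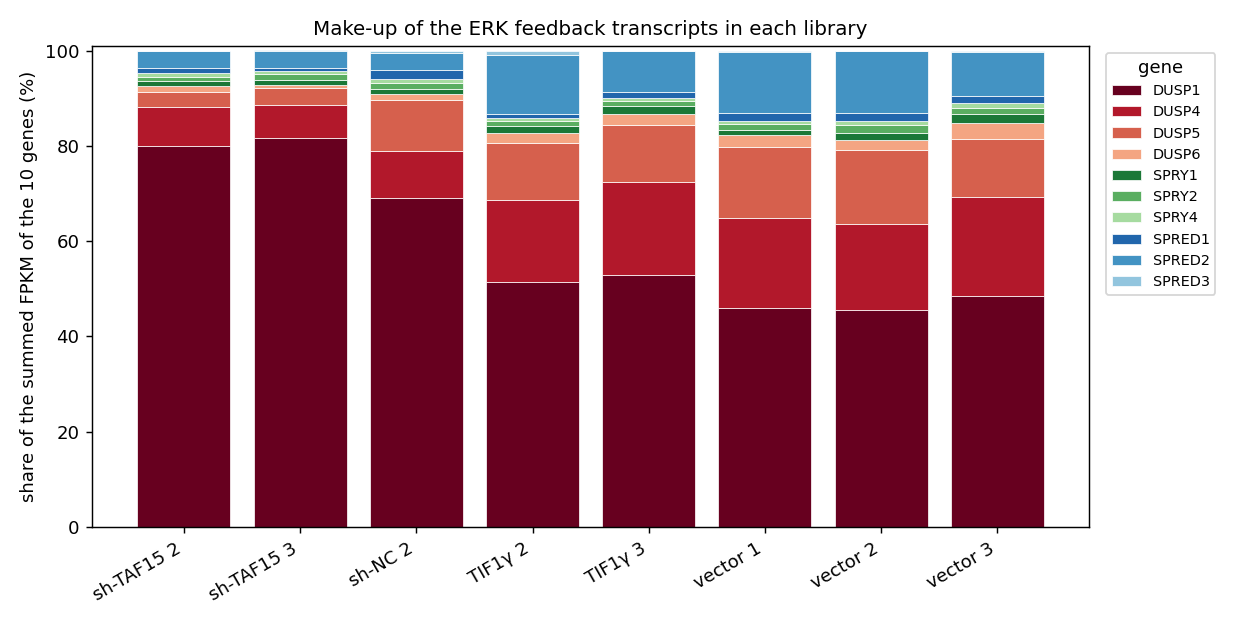
Share of each gene (y axis, percent) in the summed deposited FPKM of the 10 genes, with 1 stacked bar for each library (x axis). The DUSP1 share is between 69.1% and 81.7% in the 3 sh-TAF15 and sh-NC libraries and between 45.6% and 52.9% in the 5 TIF1γ and vector libraries.

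The sh-TAF15 and sh-NC cells (together the sh lines) were set against the TIF1γ and vector cells. DUSP1, SPRY4 and SPRED1 rose and SPRED2 fell in the sh lines, but DUSP1 was the only 1 of these calls that held with each library but sh-NC, which the comparison needs, left out in turn. The 4 calls became 1 without sh-TAF15 replicate 2 and 2 without sh-TAF15 replicate 3, TIF1γ replicate 2, vector replicate 1 or vector replicate 2. DUSP1 changed most, by 2.8-fold (95% interval 2 to 3.91) on the scale of FPKM + 1. The 4 genes called at an adjusted p under 0.05 (limma, Benjamini-Hochberg over all genes tested) stood against 41.6% called among all 13907 genes tested, with 20.4% called higher and 21.1% called lower. A count of 3 higher and 1 lower of 10 is near that background, and the median log2 fold change was 0.28 for the 10 genes and 0.01 for all genes. The sh lines differ from the others in construct type, and any other difference between the 2 sets of cells cannot be told apart from it.

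The 250 bases before the RefSeq transcription start (build GRCh38.p14) of the 4 called genes are shown because their mRNAs changed between the same groups in both directions. Capitals mark TGACG, the core of the cAMP response element (CRE) bound by CREB and ATF factors, on either strand, and the TATA box TATAAA. The windows are chr5:172771196-172771445 on the minus strand for DUSP1, chr5:142324248-142324497 on the minus strand for SPRY4, chr15:38252586-38252835 on the plus strand for SPRED1, and chr2:65432600-65432849 on the minus strand for the first of 2 listed starts of SPRED2.
DUSP1: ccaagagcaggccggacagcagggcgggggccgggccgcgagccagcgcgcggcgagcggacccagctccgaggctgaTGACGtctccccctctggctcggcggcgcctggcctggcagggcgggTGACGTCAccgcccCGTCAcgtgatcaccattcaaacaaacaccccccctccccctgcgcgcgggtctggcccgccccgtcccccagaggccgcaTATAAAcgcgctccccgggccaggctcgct
SPRY4: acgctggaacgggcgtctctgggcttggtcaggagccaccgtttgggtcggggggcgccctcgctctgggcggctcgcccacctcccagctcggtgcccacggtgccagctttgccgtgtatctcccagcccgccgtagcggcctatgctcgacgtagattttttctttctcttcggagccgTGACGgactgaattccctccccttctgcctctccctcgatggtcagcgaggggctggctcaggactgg
SPRED1: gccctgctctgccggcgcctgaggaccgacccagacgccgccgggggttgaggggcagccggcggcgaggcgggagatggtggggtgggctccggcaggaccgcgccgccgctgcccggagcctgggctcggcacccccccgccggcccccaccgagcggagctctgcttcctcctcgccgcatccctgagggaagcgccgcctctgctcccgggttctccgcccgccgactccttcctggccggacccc
SPRED2: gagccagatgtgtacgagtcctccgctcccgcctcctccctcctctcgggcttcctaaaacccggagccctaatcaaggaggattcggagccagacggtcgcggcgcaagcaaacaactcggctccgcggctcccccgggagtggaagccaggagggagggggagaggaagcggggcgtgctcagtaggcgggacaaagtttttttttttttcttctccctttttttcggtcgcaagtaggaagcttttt

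In the DUSP1 window the core TGACG was matched 4 times, with 167, 120, 117 and 106 bases between its end and the start. The middle 2 of these overlap in the full CRE TGACGTCA, and TATAAA ends 24 bases before the start. SPRY4 has a single TGACG, 63 bases before the start, and the SPRED1 and SPRED2 windows shown hold none of these letters. Of 35116 promoters of the same length, 21.2% hold TGACG on either strand, 1.65% hold TGACGTCA and 10.7% hold TATAAA. Of the 10 genes 8 had an entry, with 13 starts between them, and TGACG was before 3 of the 13 starts (DUSP1, SPRY2 and SPRY4), or 23.1%, near the share of all promoters. A second listed start of SPRED2 has TATAAA 25 bases before it. The window of the first of 2 listed starts of SPRED3 holds the AP-1 motif TGANTCA (6.57% of promoters), and that of the second does not. The CArG box of serum response factor (1.16% of promoters) was in none of the 8. DUSP4 and DUSP5 had no entry. A match is a description of the letters in these windows and not a bound site.

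Among the nuclear phosphatases, DUSP1 was at 271 and 320 FPKM in sh-TAF15, 246 FPKM in sh-NC, 85.1 and 116 FPKM in TIF1γ, and 65.7, 65.8 and 89.4 FPKM in vector. All 3 sh libraries were above all 5 others, with means of 279 ± 37.5 FPKM (SD, n = 3) against 84.4 ± 20.8 FPKM (SD, n = 5). The log2 fold change was 1.49 (SE 0.22, adjusted p = 2.72e-04), and it stayed called in all 16 alternative analyses, between 1.30 and 1.98. DUSP1 was also the only 1 of the 10 called between the 2 control constructs, sh-NC against vector, with a log2 fold change of 1.57 (SE 0.34, adjusted p = 0.00962), where 11% of all genes were called and 3.78% called higher. That call rests on a single sh-NC library and was lost without the filter on low values (adjusted p = 0.0526).

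The other phosphatases did not pass the test between the sh lines and the rest. DUSP4 was at 27.8 and 27 FPKM in sh-TAF15, 35.3 FPKM in sh-NC, 28.4 and 43.1 FPKM in TIF1γ, and 26.9, 26.1 and 38.5 FPKM in vector. The groups overlapped fully, with a log2 fold change of −0.22 (SE 0.23, 95% interval −0.72 to 0.28). DUSP6, the cytoplasmic ERK phosphatase, was at 3.85 and 2.59 FPKM in sh-TAF15, 4.93 FPKM in sh-NC, 3.66 and 5.43 FPKM in TIF1γ, and 3.71, 2.85 and 6.16 FPKM in vector. Its libraries overlapped too, with a log2 fold change of −0.21 (95% interval −0.82 to 0.39). For DUSP5 the sh lines lay on both sides of the others, and the log2 fold change was −0.18 (95% interval −0.62 to 0.25).

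Sprouty mRNAs were low throughout, and SPRY4 was the only 1 of the 3 called. SPRY4 was at 2.68 and 2.23 FPKM in sh-TAF15, 3.09 FPKM in sh-NC, 1.16 and 1.38 FPKM in TIF1γ, and 0.918, 1.05 and 1.9 FPKM in vector. The deposited values of the sh lines were all above the others, but sh-TAF15 replicate 3 and vector replicate 3 crossed once the libraries were scaled to each other. SPRY4 had a log2 fold change of 0.62 (SE 0.24, adjusted p = 0.0497). The SPRY4 call was lost without TIF1γ replicate 2, vector replicate 1, vector replicate 2, sh-TAF15 replicate 2 or sh-TAF15 replicate 3 (0.54 to 0.67, adjusted p from 0.0664 to 0.138).

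SPRY2, which also binds the ubiquitin ligase CBL, was at 3.19 and 4.54 FPKM in sh-TAF15, 4.38 FPKM in sh-NC, 1.87 and 2.25 FPKM in TIF1γ, and 1.81, 2.45 and 2.2 FPKM in vector. Every sh library was above every other library, both as deposited and after scaling. SPRY2 missed the threshold, with a log2 fold change of 0.59 (SE 0.23, adjusted p = 0.0512). It passed in 5 of 16 alternatives and missed in 11 (limma, adjusted p up to 0.16). It passed without TIF1γ replicate 3 (0.66, adjusted p = 0.0347), unscaled (0.72, 0.0169) and with the GC and length trend removed (0.55, 0.0389). It also passed with 1 FPKM asked of all libraries (0.59, 0.0349) and with plain eBayes (0.59, 0.0399). SPRY1 was at 3.63 and 4.34 FPKM in sh-TAF15, 3.66 FPKM in sh-NC, 2.21 and 3.68 FPKM in TIF1γ, and 1.41, 2.25 and 3.83 FPKM in vector. The third replicates of TIF1γ and vector reached the sh lines, and the log2 fold change was 0.29 (SE 0.28, adjusted p = 0.428).

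The 2 better-expressed Spred genes were called in opposite directions, but the SPRED1 call was lost with the trend in transcript GC content and length removed (0.13, adjusted p = 0.574). SPRED1 was at 3.55 and 2.98 FPKM in sh-TAF15, 6.22 FPKM in sh-NC, 1.16 and 2.49 FPKM in TIF1γ, and 2.6, 2.54 and 2.65 FPKM in vector. The sh-NC library was the highest and TIF1γ replicate 2 the lowest, and the sh lines were above the others as deposited but not after scaling. SPRED1 had a log2 fold change of 0.69 (SE 0.24, adjusted p = 0.0378). The SPRED1 call was lost without any 1 of TIF1γ replicate 2, vector replicates 1, 2 and 3, and sh-TAF15 replicates 2 and 3 (0.46 to 0.74, adjusted p from 0.0504 to 0.111).

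SPRED2 was at 12 and 14.3 FPKM in sh-TAF15, 13.2 FPKM in sh-NC, 20.7 and 19 FPKM in TIF1γ, and 18.2, 18.8 and 17.1 FPKM in vector. All sh libraries were below all others, with means of 13.2 ± 1.15 FPKM (SD, n = 3) against 18.8 ± 1.3 FPKM (SD, n = 5). SPRED2 had a log2 fold change of −0.65 (SE 0.19, adjusted p = 0.0145), which was no longer called without sh-TAF15 replicate 2 (−0.60, adjusted p = 0.0644). Unscaled, log2 fold changes in the sh lines stand up to 0.17 higher, and by less for low genes, and SPRED2 was then at −0.49 (adjusted p = 0.0519). SPRED3 was at 0.417 and 0.056 FPKM in sh-TAF15, 1.51 FPKM in sh-NC, 1.37 and 0.245 FPKM in TIF1γ, and 0.174 and 0.28 FPKM in vector replicates 1 and 3, and was listed at 0 in vector replicate 2. Its libraries were spread within each group, and its log2 fold change was 0.28 (adjusted p = 0.402).

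After scaling, the groups were fully apart for 3 of the 10 genes, DUSP1 and SPRY2 higher and SPRED2 lower, beside 34% of all genes (16.3% higher and 17.7% lower). Transcript GC content moved with the comparison: the median log2 fold change of all tested genes was 0.56 below 40% GC, 0.31 from 40 to 50%, −0.29 from 50 to 60% and −0.62 above 60%. DUSP1 has 55.1% GC and moved against that trend, and with the trend in GC and length removed its log2 fold change was 1.89 (adjusted p = 7.23e-04). SPRED1, the most AT-rich of the 10 at 38.9% GC, moved with it and was not called once it was removed. SPRY4 (50.4% GC) was then at 0.57 (adjusted p = 0.0437), SPRY2 (48.3% GC) at 0.55 (adjusted p = 0.0389) and SPRED2 (48.7% GC) at −0.75 (adjusted p = 0.00465).

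**Figure D3:**
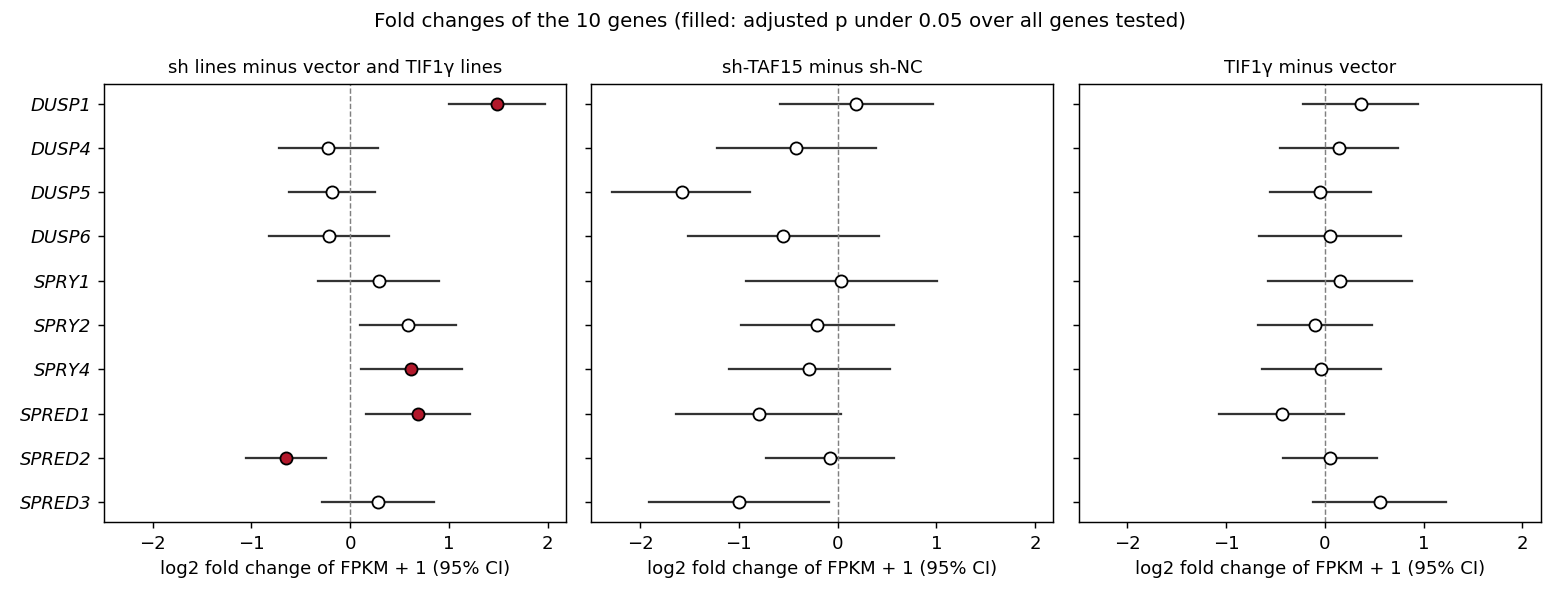
Log2 fold changes of FPKM + 1 with 95% intervals (x axis) of the 10 genes (y axis) in 3 comparisons, with filled points at an adjusted p under 0.05. In the left panel DUSP1 is at 1.49 and SPRED2 at −0.65, in the middle panel DUSP5 is at −1.58 with no filled point, and in the right panel every interval includes 0.

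The knockdown comparison asks how the 10 mRNAs differ when TAF15 is silenced, with the empty shRNA construct as control. None of the 10 passed the test in sh-TAF15 against sh-NC (limma, adjusted p from 0.126 to 0.998), where 0.0575% of all genes were called. At an unadjusted p under 0.05 there were 2 of the 10 genes, DUSP5 and SPRED3, beside 5.64% of all genes. SPRED3 had passed the filter through sh-NC, the group where it is high, so its value here is a description and not a test result. The median log2 fold change was −0.35 for the 10 genes and −0.00 for all genes, and 8 of the 10 were below 0. As sh-NC has a single library, these differences rest on the spread in the other groups, and a library that stands apart cannot be told from the group.

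DUSP5, the nuclear phosphatase that acts on ERK alone, had the largest difference. It was at 11.3 and 13.9 FPKM in sh-TAF15, against 38 FPKM in sh-NC. Both sh-TAF15 libraries were the lowest of all 8 and the sh-NC library the highest, with TIF1γ (19.9 and 25.8 FPKM) and vector (21.3, 22.4 and 22.6 FPKM) between them. The log2 fold change was −1.58 (SE 0.32, 95% interval −2.28 to −0.89, limma unadjusted p = 2.61e-04, adjusted p = 0.126). DUSP5 was called in 2 alternatives, without vector replicate 2 (adjusted p = 0.0328) and with only the sh-TAF15 and sh-NC libraries in the fit (−1.56, adjusted p = 2.49e-04), where 229 genes were called in place of 8. That last fit has 1 residual degree of freedom, so its spread comes from the 2 sh-TAF15 libraries, and the call adds no support.

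The level of DUSP5 in sh-NC was itself not called against vector (log2 fold change 0.58, SE 0.30, adjusted p = 0.226). The other nuclear phosphatases had log2 fold changes of 0.19 for DUSP1 (95% interval −0.58 to 0.97) and −0.42 for DUSP4 (−1.22 to 0.39) in sh-TAF15 against sh-NC, and DUSP6 was at −0.55 (−1.51 to 0.42). The Sprouty genes were between −0.29 for SPRY4 and 0.04 for SPRY1. Among the Spred genes, SPRED3 was at −1.0, SPRED1 at −0.80 (SE 0.39, adjusted p = 0.888) and SPRED2 at −0.08. AT-rich genes were lower in sh-TAF15 (median −0.25 below 40% GC, 0.22 above 60% GC). With the trend in GC and length removed, SPRED1 was at −0.48 and DUSP5 at −1.73. After scaling, both sh-TAF15 libraries were above the sh-NC library for DUSP1 and below it for 7 genes, and such a separation was seen for 73.1% of all genes (35.3% higher and 37.8% lower).

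The overexpression comparison asks how the 10 mRNAs differ when TIF1γ is raised, with the empty expression construct as control. None of the 10 passed the test in TIF1γ against vector (limma, adjusted p from 0.318 to 0.954), where 0.0216% of all genes were called. None of the 10 had an unadjusted p under 0.05 either, beside 19.9% of all genes. The log2 fold changes were between −0.44 for SPRED1 and 0.56 for SPRED3, with a median of 0.05 for the 10 genes and 0.02 for all genes. SPRED3, which also had the lowest adjusted p here (limma, 0.318), passed the filter in part through TIF1γ replicate 2 (1.37 FPKM). Its value here is thus a description and not a test result. The groups were apart after scaling for SPRED2 only, which was higher, beside 36.6% of all genes (17.3% higher).

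DUSP1 was at 85.1 and 116 FPKM in TIF1γ, against 65.7, 65.8 and 89.4 FPKM in vector, and the groups overlapped. The log2 fold change of DUSP1 was 0.36, and its 95% interval of −0.22 to 0.94 spans folds of 0.861 to 1.91. DUSP4, DUSP5 and DUSP6 were at 0.14, −0.05 and 0.05, and the Sprouty genes at 0.15 (SPRY1), −0.10 (SPRY2) and −0.04 (SPRY4). SPRED2 was at 20.7 and 19 FPKM in TIF1γ, against 18.2, 18.8 and 17.1 FPKM in vector, with a log2 fold change of 0.05 (95% interval −0.43 to 0.53). SPRED1 was lowest in TIF1γ replicate 2, at 1.16 FPKM, and without that library SPRED1 was at −0.035. AT-rich genes were lower in TIF1γ (median −0.52 below 40% GC, 0.49 above 60% GC), and SPRED1 was at 0.05 with that trend removed.

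The effect of TIF1γ minus that of TAF15 knockdown, each against its own control, was called for none of the 10 genes (limma, lowest adjusted p = 0.611), where 0.0431% of all genes were called. At an unadjusted p under 0.05 there were 2 of the 10, beside 3.6% of all genes. These were DUSP5, with a difference of 1.54 log2 units (SE 0.40), and SPRED3, with 1.56. SPRED3 passed the filter only through sh-NC replicate 2 and TIF1γ replicate 2, which both push this difference upward, so its value is a description. All 10 differences were above 0, with a median of 0.31 for the 10 genes and −0.01 for all genes, but without TIF1γ replicate 3 only 6 of the 10 were. Each of them includes the same single sh-NC library.

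Further genes of the pathway were read from 4 lists. Their values still hold the trend in transcript GC content and length, and its part in them was not tested. In TIF1γ against vector and in sh-TAF15 against sh-NC no gene of any of the 4 lists was called. In the sh lines against the TIF1γ and vector lines, genes of all 4 lists were called in both directions, beside the 41.6% called among all genes. These counts include genes that passed the filter only through the lines where they are high, which are marked below.

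Of 22 genes from the receptors to ERK, 21 were tested, and 6 rose and 2 fell in the sh lines, with a median of 0.35. EGFR, the epidermal growth factor receptor, was at 7.28 to 19.8 FPKM in the sh lines and 2.59 to 6.19 FPKM in the others (1.22, adjusted p = 0.00403). These EGFR values are as deposited, and the sh lines and the others overlapped once the libraries were scaled. ERBB3, a receptor of the same family, was at 0.0724 to 0.92 FPKM in the sh lines and 2.15 to 5.4 FPKM in the others (−1.93). ERBB3 passed the filter only through the TIF1γ and vector libraries, where it is high, so its value is a description and not a test result. PTPN11, the phosphatase SHP2 that relays receptor signals to RAS, had a log2 fold change of 1.08. In TIF1γ against vector, RASA1, NRAS and PTPN11 had the lowest p of the list, at −0.93, −0.90 and −0.87 (adjusted p 0.2 to 0.201). In sh-TAF15 against sh-NC these were NF1 at −0.88, EGFR at −1.02 and PTPN11 at −0.80 (adjusted p from 0.821 to 0.888). NF1, the partner of the Spred proteins, stood at 4.98 and 4.2 FPKM in sh-TAF15, against 8.92 FPKM in sh-NC.

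Of 22 genes known to be induced by ERK, 18 were tested, and 5 rose and 6 fell in the sh lines, with a median of 0.08. The AP-1 subunit FOSL1 was at 70.7 to 136 FPKM in the sh lines and 19.4 to 30 FPKM in the others (1.76, adjusted p = 1.83e-05). PHLDA1 (1.47) rose with it, and the EGFR ligand HBEGF was higher too (1.53). HBEGF was at 0.646 to 0.929 FPKM in the TIF1γ and vector libraries and passed the filter only through the sh lines. Its value is thus a description and not a test result. Further genes, named after their values were seen, were the AP-1 subunits FOS (−1.37) and JUNB (−1.33) and the EGFR ligand AREG (−1.92), which fell. In sh-TAF15 against sh-NC, 16 of the 18 were below 0, with a median of −0.27 beside −0.00 for all genes. All 18 values include the same single sh-NC library, so they are not separate observations, and none of the 18 was called. The lowest p values there were those of FOSL1 (−0.99, adjusted p = 0.547), ETV4 (−0.79) and CCND1 (−0.62). In TIF1γ against vector JUNB (0.92), ETV5 (0.71) and IER2 (0.63) had the lowest p, with adjusted p from 0.2 to 0.206.

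Of 8 other MAP kinase phosphatases 6 were tested, and 1 rose and 2 fell in the sh lines, with a median of −0.83. DUSP7, like DUSP6 a cytoplasmic ERK phosphatase, was at 5.4 to 9.72 FPKM in the sh lines and 1.94 to 2.74 FPKM in the others (1.27, adjusted p = 6.54e-04). DUSP9, the remaining ERK phosphatase of that subfamily, was at 0.646 to 1.09 FPKM in the sh lines and 2.69 to 5.28 FPKM in the others (−1.47). DUSP8, a phosphatase of JNK and p38, had a log2 fold change of −1.21. In the sh lines DUSP8 was at 0.0259 to 0.178 FPKM, and DUSP9 reached 1 FPKM only in sh-TAF15 replicate 3. Both passed the filter through the TIF1γ and vector libraries, where they are high, so their values are descriptions and not test results. The 3 ERK phosphatases of the cytoplasm thus differed: DUSP7 was called higher, DUSP9 was lower in FPKM and DUSP6 was not called. In TIF1γ against vector the lowest p were those of DUSP10 (0.59), DUSP8 (0.49) and DUSP9 (0.35), and in sh-TAF15 against sh-NC those of DUSP7 (−0.70), DUSP3 (0.47) and DUSP16 (−0.92), none of them called.

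Of 9 other feedback inhibitors of receptors and ERK 7 were tested, and 2 rose and 1 fell in the sh lines, with a median of 0.18. SH2B3, an adaptor that restrains cytokine receptor signalling, was at 7.02 to 14.1 FPKM in the sh lines and 0.888 to 1.55 FPKM in the others (2.30, adjusted p = 8.61e-06). PEA15, which holds ERK in the cytoplasm, had a log2 fold change of 1.09. ERRFI1, an inhibitor of EGFR, was at 14.2 to 19.8 FPKM in the sh lines and 25.7 to 56.3 FPKM in the others (−1.32, adjusted p = 0.00268). In TIF1γ against vector CBL (−0.27), LRIG3 (−0.25) and PEA15 (0.20) had the lowest p, and in sh-TAF15 against sh-NC SH2B3 (−0.83), PEA15 (−0.44) and LRIG3 (−0.49), none of them called.

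**Figure D4:**
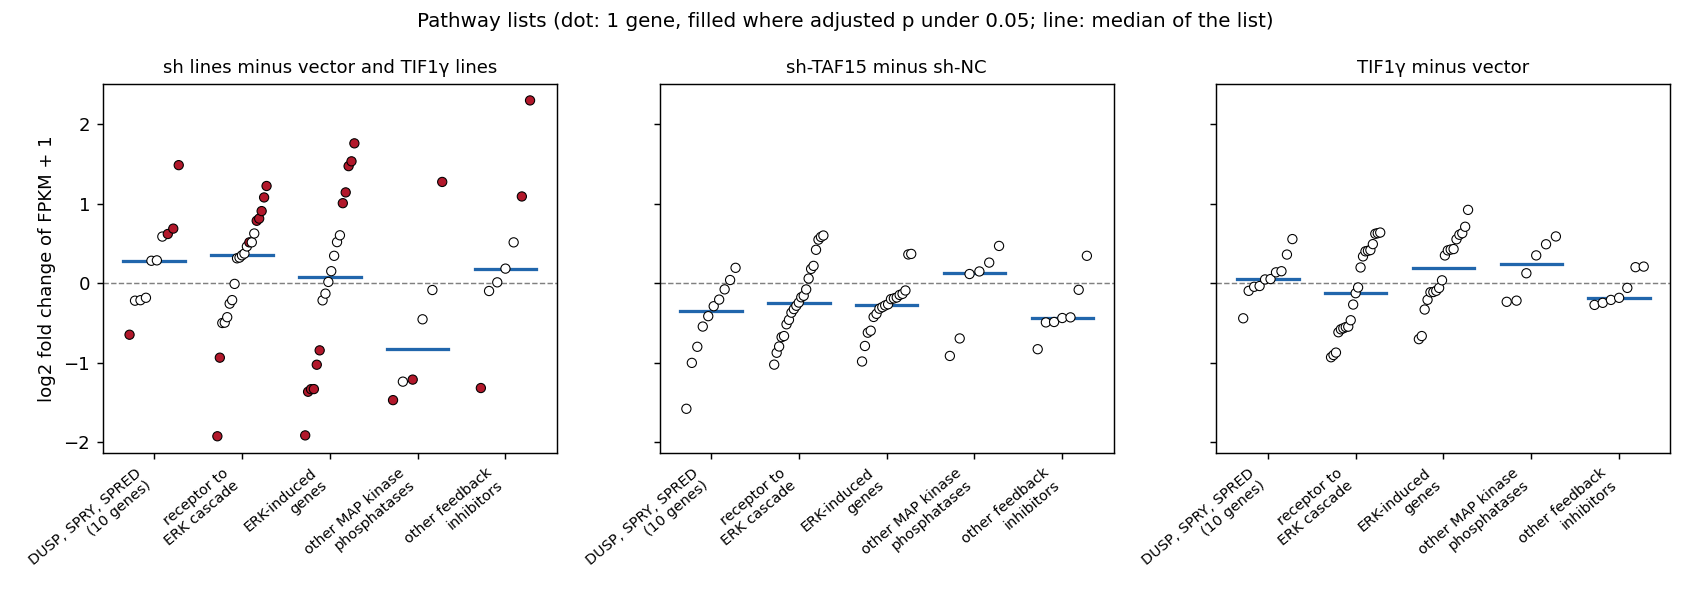
Log2 fold changes of FPKM + 1 (y axis) of the 10 genes and of the tested genes of the 4 pathway lists (x axis) in 3 comparisons, with filled points at an adjusted p under 0.05 and a line at each median. Filled points lie on both sides of 0 for each list in the left panel, and there is none in the middle and right panels.

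The gene with the widest spread over the libraries in each family was set against 11710 protein-coding genes. For DUSP1 (SD 0.85 log2 units) the highest Pearson correlations over the 8 libraries were those of TSPAN7 (0.997), MOCOS (0.995) and RASSF10 (0.986). TSPAN7 was at 31.5 and 37.8 FPKM in sh-TAF15, 25.2 FPKM in sh-NC, 4.77 and 10.3 FPKM in TIF1γ, and 3.4, 3.59 and 5.37 FPKM in vector, so like DUSP1 it separated the sh lines from the rest. For SPRY1 (SD 0.38) these were INPP1 (0.974), RAET1E (0.949) and RAB20 (0.945). For SPRED3 (SD 0.48) these were TANC2 (0.961), PFKFB4 (0.934) and MTF1 (0.924), and these values rest on sh-NC replicate 2 and TIF1γ replicate 2, where alone SPRED3 was above 1 FPKM. The points share libraries and, for DUSP1, the split between the sh lines and the rest, so the values are descriptions of these 8 libraries.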

How the data were processed

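RNA sequencing values of 8 samples of stable A549 cells in 4 groups were used. The deposited values are FPKM per gene, which the authors made on the GRCh37 genome. HISAT2 2.0.1, HTSeq 0.6.1 and cutadapt 1.9.1 were used, per the submitters' processing notes. How FPKM was computed from counts, and the read totals, are not given in the sources used here. Ensembl identifiers were named with GENCODE 29 (GRCh38), also the source of transcript length and GC content, and 51983 of 57879 matched a symbol.

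Genes with an exact 0 beside 100 FPKM or more (19) were set aside, and the 13907 genes that reached 1 FPKM in 2 or more libraries were tested. A trimmed mean of the log2 ratios scaled the libraries to each other (trim per end: 30% of the ratios, 5% of the abundances). limma 3.58.1 in R 4.3.3 was fitted to log2(FPKM + 1) over all 4 groups (eBayes with trend and robust, 4 residual degrees of freedom, prior 9.57), under the assumption that the 1 sh-NC library varies as the others do. The pseudocount understates fold changes of low genes. P-values were adjusted by Benjamini-Hochberg over all genes tested, with a call at an adjusted p under 0.05. The fit was tested on simulated data.

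Promoter windows come from RefSeq (GRCh38.p14), and motifs were searched on both strands. The 10 genes, the lists and the tests were chosen with earlier results of these data known. Pathway genes were named as the 3 with the lowest p of each list in 3 comparisons, and others are marked. Alternatives were no scaling, other pseudocounts and filters, removal of the GC and length trend, a replicate block, plain eBayes, only the groups compared, and each library left out.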

Additional observations from a re-analysis of the deposited data

How the results depend on the processing

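Of 821 fold changes of the 10 genes under the alternatives, 755 kept their direction and side of the threshold, 24 lost a call, 7 gained one and 35 turned in sign, of which 0 were called under the alternative. The cause of these changes was not tested. In the sh lines against the others, where 4 genes were called, 2 were called with no filter on low values, 1 with the replicate block, 2 with the GC and length trend removed and the replicate block, and 1 to 5 with a library left out. In sh-NC against vector 0 were called with no filter, in place of 1. In sh-TAF15 against sh-NC 1 was called with only these groups in the fit and 0 to 1 with a library left out, in place of 0. Signs turned at small values. Without scaling, DUSP5 was at 0.0339 and SPRY4 at 0.0105 in TIF1γ against vector. With the trend removed, SPRED1 was at 0.049 in TIF1γ against vector, DUSP5 at 0.19 in the sh lines, and DUSP4 at −0.0157 and DUSP6 at −0.13 in sh-NC against vector. With the replicate block, DUSP6 was at −0.0107 and SPRY1 at −0.10 in TIF1γ against vector, and DUSP1 at −0.0281 and SPRY1 at −0.21 in sh-TAF15 against sh-NC. With the trend removed and the block, DUSP1 was at −0.22 and SPRY1 at −0.15 in sh-TAF15 against sh-NC, DUSP5 at 0.26 in the sh lines, and DUSP6 at −0.0476 in sh-NC against vector. With a library left out, TIF1γ against vector ran from −0.24 to 0.52 for DUSP4, −0.31 to 0.23 for DUSP5, −0.26 to 0.36 for DUSP6, −0.19 to 0.50 for SPRY1, −0.25 to 0.0584 for SPRY2 and −0.16 to 0.17 for SPRY4. The difference of both effects ran from −0.15 to 0.46 for DUSP1, −0.23 to 0.44 for SPRY1, −0.0656 to 0.28 for SPRY2 and −0.0471 to 0.74 for SPRED1. In sh-NC against vector DUSP4 ran from −0.056 to 0.25 and DUSP6 from −0.13 to 0.36, and in sh-TAF15 against sh-NC SPRY1 from −0.0378 to 0.12 and SPRED2 from −0.17 to 0.0105. With the replicate block, SPRY4 (0.61, adjusted p = 0.127), SPRED1 (0.74, 0.0754) and SPRED2 (−0.63, 0.105) were not called. SPRY4 was not called either at a pseudocount of 0.1 (0.92, 0.0614) or 0.5 (0.76, 0.054) or with no filter (0.62, 0.0864), nor was SPRED1 with no filter (0.69, 0.0764). Whether the replicate numbers pair the samples could not be settled here. Deviations of replicates 2 and 3 correlated at 0.154 between TIF1γ and vector, −0.24 between TIF1γ and sh-TAF15 and −0.319 between vector and sh-TAF15. The single sh-NC library could not be included.

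Calls among all genes moved more. TIF1γ against vector had 3 calls, 5 at a pseudocount of 0.1, 0 with no filter, with 1 FPKM asked of all libraries and with the trend removed (with or without the block), 44 with the block, and 1 to 299 with a library left out, the most without vector replicate 3. sh-TAF15 against sh-NC had 8 calls, 21 at a pseudocount of 0.1, 187 with no filter, 3 with the trend removed, 52 with the block, 2 with both, 229 with only these groups, and 0 to 52 with a library left out. The difference of effects had 6, 103 with no filter, 0 with 1 FPKM in all libraries, 30 with the block, 2 with both, and 1 to 18 with a library left out. The sh lines had 5780 calls and 2709 with both, and sh-NC against vector 1528, 1000 with the block and 547 with both. A fit with only the groups compared was not made for the difference of effects and the sh lines. Left out of these alternatives were sh-NC replicate 2 where a comparison needs it, and SPRED3, and SPRY4 with 1 FPKM in all libraries, where they failed the filter. Absolute depth is unknown, so no counting error is given for the low Sprouty and Spred values.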
